A study of Homo sapiens with 10 samples.

Results

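The ANP32 acidic chaperones, the genes of the histone variant H2A.Z and the machines that move H2A.Z in and out of nucleosomes were followed in MM.1S, a human multiple myeloma cell line. They comprised 10 genes of the 19775 measured, namely ANP32A, ANP32B, ANP32E, H2AZ1, H2AZ2, SRCAP, EP400, VPS72, ZNHIT1 and INO80. They were chosen by name, and 26 probe sets of the microarray carried 1 of these symbols alone. A gene was led by its brightest probe set, taken as the mean of all 10 arrays, and the others were set beside it. The large fall of ANP32E in HDAC3 knockdown was known when the genes were chosen, so that its changes against the control are given as a description, with no test.

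H2A.Z replaces the ordinary histone H2A at promoters and enhancers. The SRCAP and p400 complexes put it into nucleosomes, and ANP32E, a chaperone that binds H2A.Z, takes it out again. ANP32A and ANP32B are relatives of ANP32E with a leucine-rich head and an acidic tail, and ANP32A is also known as an inhibitor of the phosphatase PP2A.

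MM.1S cells were infected with lentivirus carrying a short hairpin RNA, and RNA was taken 48 h later. The 5 groups of 2 arrays each received a hairpin against luciferase (shLuc, the control), against the histone deacetylase HDAC3 (shHDAC3#1 or shHDAC3#2) or against the maintenance DNA methyltransferase DNMT1 (shDNMT1#1 or shDNMT1#2). One label calls shLuc the control of the HDAC3 hairpins alone, while the design text sets both knockdowns against it. Whether the DNMT1 cultures were infected and hybridized together with the others was not stated in the labels, and a batch of that kind cannot be told apart from the DNMT1 groups. The labels name no selection of infected cells and do not say that replicates were separate cultures, so that p-values cover the spread among these arrays and no more, and that spread may be technical. In RNA from whole cultures, fewer cells with a transcript and less transcript per cell cannot be told apart.

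Both targets were lower where they were targeted, HDAC3 at 44.2% of shLuc in HDAC3 knockdown and DNMT1 at 19.1% in DNMT1 knockdown, and DNMT1 also stood at 52.7% in HDAC3 knockdown. HDAC3 stood at 77.7% in DNMT1 knockdown (adjusted p = 0.11), and was called lower with shDNMT1#2 (65.8%, adjusted p = 0.019) but not with shDNMT1#1 (91.7%, adjusted p = 0.73). Of 10 plasma cell and myeloma markers, 9 lay above the median level of all genes, as did 2 of 6 T cell, 2 of 5 myeloid, 1 of 5 epithelial and 2 of 5 fibroblast markers. Summed over a list, the levels of each of these 4 other cell types differed between the groups by less than 2 log2 units. The plasma cell list summed to 95.6 in shLuc and to 90.7 in the lowest group. Of its 10 genes, 4 were called lower and 1 higher in HDAC3 knockdown, and 7 lower and 1 higher in DNMT1 knockdown (median change -0.15 and -0.55). The part of this shift in the results was not tested. TRAT1, of the T cell list, was lower in DNMT1 knockdown (-0.46), and KRT19, of the epithelial list, higher in HDAC3 knockdown (0.31). Signals spread more widely on the control arrays (SD 1.94 and 1.93 log2 units) than on the 8 others (1.84 to 1.91). This SD comes from the same signals and sets the control apart. A fit with it as a covariate therefore cannot fully separate spread from change against shLuc. The difference between 3′ and 5′ ACTB probe sets, a sign of RNA integrity, was 1.00 in shHDAC3#1 and 0.71 to 0.74 in the other groups.

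ANP32E was the member with the largest change. On the log2 scale of the arrays, its leading probe set (221505_at) read 9.72 and 9.68 in the shLuc arrays, 7.53 and 7.58 with shHDAC3#1 and 8.16 and 8.39 with shHDAC3#2. It read 8.78 and 8.62 with shDNMT1#1 and 8.85 and 8.65 with shDNMT1#2. All 8 knockdown arrays lay below both control arrays, and the HDAC3 arrays lay below all DNMT1 arrays. The log2 change was -1.79 ± 0.09 (SE, n = 4 against 2 arrays) in HDAC3 knockdown, which left 29.0% of the control signal, and -0.97 ± 0.09 in DNMT1 knockdown, which left 51.0%. From low to high, the groups ran shHDAC3#1, shHDAC3#2, shDNMT1#1, shDNMT1#2 and shLuc, and the arrays of the DNMT1 hairpins overlapped.

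**Figure D1:**
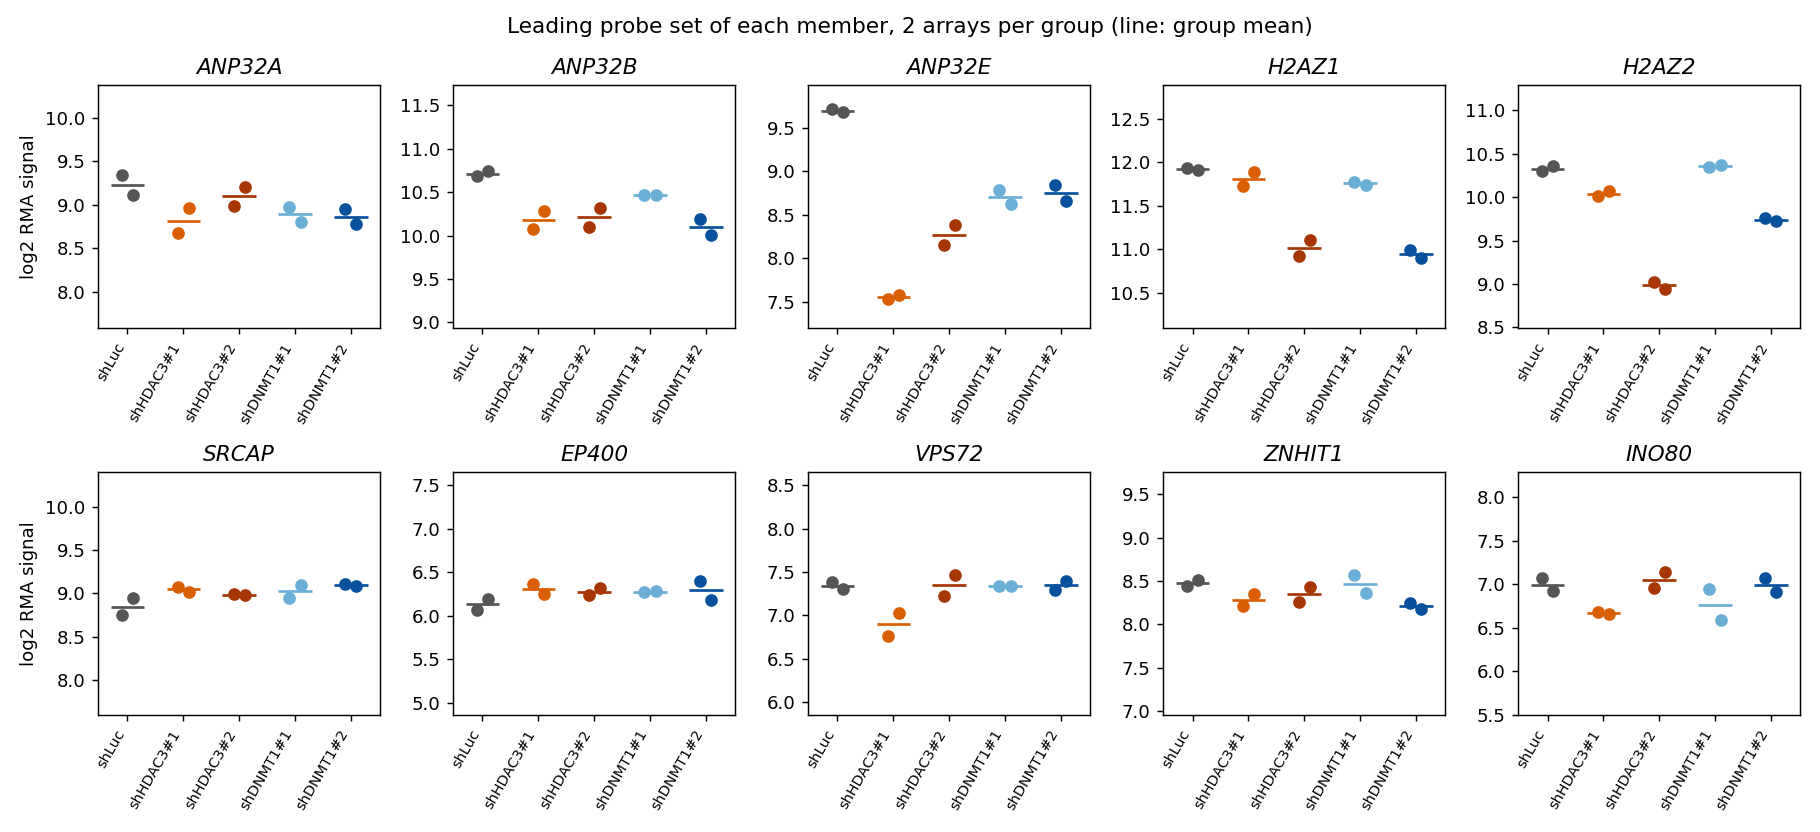
Log2 RMA signal of the leading probe set of each of the 10 genes (vertical axis; each panel spans the same range of log2 units) in the 2 arrays of each of the 5 groups (horizontal axis), with a line at the group mean. ANP32E is lower in all 8 knockdown arrays than in shLuc, H2AZ1 and H2AZ2 are lowest with shHDAC3#2 and shDNMT1#2, and SRCAP and EP400 differ little.

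The 2 other ANP32E probe sets were lower as well. In HDAC3 knockdown, 208103_s_at was at -1.12 ± 0.11 and 229128_s_at at -1.61 ± 0.10, and in DNMT1 knockdown they were at -0.97 ± 0.11 and -0.92 ± 0.10. They did not give the same order of the HDAC3 hairpins. Differences were tested with limma, a linear model with moderated variances, and a gene is named as called, as having fallen or as having risen where its p, adjusted by Benjamini-Hochberg over all genes, was under 0.05. The leading probe set was higher with shHDAC3#2 than with shHDAC3#1 by 0.72 ± 0.10 (limma, adjusted p = 2.7e-05), and 229128_s_at by 0.38 ± 0.11 (adjusted p = 0.039 over all probe sets). 208103_s_at went the other way, at -0.53 ± 0.13 (adjusted p = 0.013). With the mean of the 3 probe sets the difference between the hairpins was 0.19 and was not called (adjusted p = 0.32). The distance between the knockdowns also varied, at 0.81 for the leading probe set, 0.69 for 229128_s_at and 0.15 for 208103_s_at. The DNMT1 hairpins did not differ by the test in ANP32E (0.05 ± 0.10, adjusted p = 0.81).

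The genes whose pattern over the 10 arrays was most like that of ANP32E, among 1061 others with group means at least 1 log2 unit apart, were PERP (Pearson's r = 0.97), CORO1C (r = 0.97) and HELLS (r = 0.96). PERP encodes a desmosome protein, CORO1C an actin-binding coronin and HELLS a chromatin remodeller needed for DNA methylation. These correlations are descriptions, since all genes share the same arrays and groups.

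ANP32B fell in both knockdowns. Its leading probe set read 10.68 and 10.74 in shLuc, 10.08 and 10.28 with shHDAC3#1, and 10.10 and 10.32 with shHDAC3#2. It read 10.46 and 10.47 with shDNMT1#1 and 10.19 and 10.00 with shDNMT1#2. No knockdown array reached the control arrays, and shDNMT1#1 came closest. The log2 change was -0.52 ± 0.08 in HDAC3 knockdown (adjusted p = 9.5e-05) and -0.43 ± 0.08 in DNMT1 knockdown (adjusted p = 0.00073). ANP32B was lower with shDNMT1#2 than with shDNMT1#1 by -0.37 ± 0.10 (adjusted p = 0.014), and against shLuc it was not called with shDNMT1#1 (-0.25, adjusted p = 0.14). The difference between these hairpins was -0.10 and not called after a further quantile normalization (adjusted p = 0.28), and was not called without shDNMT1#2 replicate 2 (-0.28, adjusted p = 0.20). Both comparisons with shLuc lost their call with the hairpin as a random block (adjusted p = 0.21 and 0.29), and with the array SD as a covariate ANP32B was at -0.19 and -0.09 (adjusted p = 0.98 and 0.94). Its second probe set, of a kind that can cross-hybridize like the first, was at -0.42 ± 0.09 and -0.41 ± 0.09 in the HDAC3 and DNMT1 comparisons.

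Among the leading probe sets of the 3 chaperones, that of ANP32A changed least. It read 9.35 and 9.11 in shLuc, 8.67 and 8.96 with shHDAC3#1, 8.99 and 9.21 with shHDAC3#2, 8.98 and 8.80 with shDNMT1#1, and 8.95 and 8.77 with shDNMT1#2. All DNMT1 arrays lay below shLuc, while an shHDAC3#2 array lay between the control arrays. ANP32A fell in DNMT1 knockdown by 0.35 ± 0.10 (adjusted p = 0.016) and was at -0.27 ± 0.10 in HDAC3 knockdown (adjusted p = 0.061). Its 2 other probe sets were at -0.34 and -0.29 in DNMT1 knockdown and at -0.25 and -0.21 in HDAC3 knockdown. In HDAC3 knockdown the adjusted p of ANP32A lay close to the threshold. It was 0.048 with dim probe sets filtered out, 0.045 with only the arrays compared and 0.028 to 0.042 in 5 fits that left out 1 array, while without shLuc replicate 1 the change was -0.15 (adjusted p = 0.65). With the array SD as a covariate ANP32A was at 0.33 in HDAC3 knockdown and 0.27 in DNMT1 knockdown (adjusted p = 0.61 and 0.67). Leaving out shLuc replicate 1 ended the call in DNMT1 knockdown (-0.23, adjusted p = 0.40). Leaving out shDNMT1#2 replicate 2 ended it as well (-0.31, adjusted p = 0.065), as did a further quantile normalization (-0.08, adjusted p = 0.47).

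H2AZ1 and H2AZ2 encode nearly identical forms of H2A.Z from separate chromosomes. Both were lower with shHDAC3#2 and shDNMT1#2 than with the other hairpin of the same target. The 250 bases before their start sites are shown because the genes shared this pattern. The sequences are RefSeq's, of build GRCh38.p14, for H2AZ1 at chr4:99950276-99950525 on the minus strand and for H2AZ2 at chr7:44848088-44848337 on the minus strand. Each is written 5′ to 3′ with the letters CCAAT, or ATTGG where the match is on the other strand, in capitals.
H2AZ1: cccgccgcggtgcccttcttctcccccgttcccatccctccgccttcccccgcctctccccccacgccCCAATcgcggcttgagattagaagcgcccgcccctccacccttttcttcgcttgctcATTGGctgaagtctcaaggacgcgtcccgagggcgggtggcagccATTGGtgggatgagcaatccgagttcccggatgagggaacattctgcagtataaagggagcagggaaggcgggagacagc
H2AZ2: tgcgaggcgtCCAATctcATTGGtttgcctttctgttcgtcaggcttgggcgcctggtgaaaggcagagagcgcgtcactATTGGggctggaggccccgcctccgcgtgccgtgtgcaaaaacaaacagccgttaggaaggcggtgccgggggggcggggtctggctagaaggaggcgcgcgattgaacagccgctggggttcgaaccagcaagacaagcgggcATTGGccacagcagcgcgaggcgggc
The H2AZ1 window held 3 such matches and the H2AZ2 window 4, none of them overlapping. Of all 35116 promoter windows of this length, 32% held at least 1 match, and 3 of the 8 members searched did. At least 3 were present in 2.93% of all windows and at least 4 in 0.874%, thresholds taken from the counts of these 2 genes. The E-box (CACGTG), the CHR element in the form TTTGAA and E2F site forms (TTGGCGC or TTCGCGC) were also searched, and other forms of these were not. They had 0 matches in the H2AZ1 and H2AZ2 windows, and 6.34%, 13.3% and 4.24% of all windows held them. ANP32A also held 3 CCAAT matches. It was not called between the hairpins of HDAC3 (0.28) or of DNMT1 (-0.03, limma, adjusted p = 0.14 and 0.92). No CCAAT match was present in the windows of the 5 other members searched, ANP32B, SRCAP, EP400, ZNHIT1 and INO80. ANP32E and VPS72 had no entry among the promoter sequences, so that their windows were not searched. A match is a description of the letters and not a binding site.

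H2AZ1 read 11.93 and 11.92 in shLuc, 11.73 and 11.89 with shHDAC3#1, and 11.78 and 11.74 with shDNMT1#1. With shHDAC3#2 it read 10.92 and 11.11, and with shDNMT1#2 10.99 and 10.90. The arrays of shHDAC3#2 and shDNMT1#2 lay apart from the 6 others and overlapped each other. H2AZ1 was lower with shHDAC3#2 than with shHDAC3#1 by -0.79 ± 0.09 (adjusted p = 1e-06) and lower with shDNMT1#2 than with shDNMT1#1 by -0.81 ± 0.09 (adjusted p = 9.3e-07). Against shLuc the change was -0.91 with shHDAC3#2 and -0.98 with shDNMT1#2, while shHDAC3#1 (-0.12, adjusted p = 0.34) and shDNMT1#1 (-0.16, adjusted p = 0.28) were not called. The mean over both hairpins fell by 0.51 ± 0.08 in HDAC3 knockdown (adjusted p = 3.5e-05) and by 0.57 ± 0.08 in DNMT1 knockdown (adjusted p = 1.1e-05). Neither H2AZ1 call over both hairpins held with the hairpin as a random block (adjusted p = 0.51 and 0.43) or with the array SD as a covariate (-0.21 and -0.26, adjusted p = 0.85 and 0.59). The second probe set, 200853_at, gave -0.76 ± 0.08 and -0.77 ± 0.08 for the differences between the hairpins.

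H2AZ2 read 10.30 and 10.35 in shLuc, 10.01 and 10.07 with shHDAC3#1, and 9.03 and 8.95 with shHDAC3#2. With shDNMT1#1 it read 10.34 and 10.37, and with shDNMT1#2 9.76 and 9.72. Each group kept apart from its neighbours in this order except shLuc and shDNMT1#1, which overlapped. The difference between hairpins was -1.06 ± 0.08 for HDAC3 (adjusted p = 8e-09) and -0.62 ± 0.08 for DNMT1 (adjusted p = 1.9e-05). Over both hairpins H2AZ2 fell by 0.82 ± 0.07 in HDAC3 knockdown (adjusted p = 6.7e-08) and by 0.28 ± 0.07 in DNMT1 knockdown (adjusted p = 0.0086). The call in HDAC3 knockdown was lost with the hairpin as a random block (adjusted p = 0.34) and with both hairpins as 1 group (adjusted p = 0.20). Against shLuc H2AZ2 was at -0.29 with shHDAC3#1 (limma, adjusted p = 0.015) and -1.34 with shHDAC3#2. It was at 0.03 with shDNMT1#1 (adjusted p = 0.87) and -0.59 with shDNMT1#2 (adjusted p = 1.7e-05). The call in DNMT1 knockdown was lost with the hairpin as a random block (adjusted p = 0.69) and with both hairpins as 1 group (adjusted p = 0.62). With the array SD as a covariate it was lost too (-0.33, adjusted p = 0.46). This call also depended on both controls. It was lost when either shLuc replicate 1 (-0.30, adjusted p = 0.069) or shLuc replicate 2 (-0.25, adjusted p = 0.065) was left out, and after a further quantile normalization (-0.10, adjusted p = 0.26).

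The H2AZ2 probe sets disagreed on DNMT1 knockdown. The leading one, 202487_s_at, averaged 9.89 over the arrays, and the others 7.82, 7.79 and 6.28. In HDAC3 knockdown the first of the dimmer probe sets fell by 1.00, and the others were at -0.99 and -0.68, beside -0.82 for the leading one. In DNMT1 knockdown the first was at -1.04 ± 0.09 and the second at -1.33 ± 0.11, the dimmest fell by 1.00 ± 0.12, and the leading one was at -0.28. With shDNMT1#2 alone they were at -1.78, -2.14 and -1.53 against -0.59 for the leading one. The difference between the knockdowns therefore depended on the probe set. With p adjusted over all probe sets, it was 0.54 ± 0.06 for the leading one (DNMT1 knockdown higher, adjusted p = 4.3e-06), -0.04 ± 0.08 for 227085_at (adjusted p = 0.85), -0.34 ± 0.09 for 212205_at (adjusted p = 0.022) and -0.32 ± 0.10 for 212206_s_at (adjusted p = 0.061). On the difference between the hairpins all 4 had the same sign, from -1.18 to -0.83 for HDAC3 and from -1.61 to -0.62 for DNMT1.

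**Figure D2:**
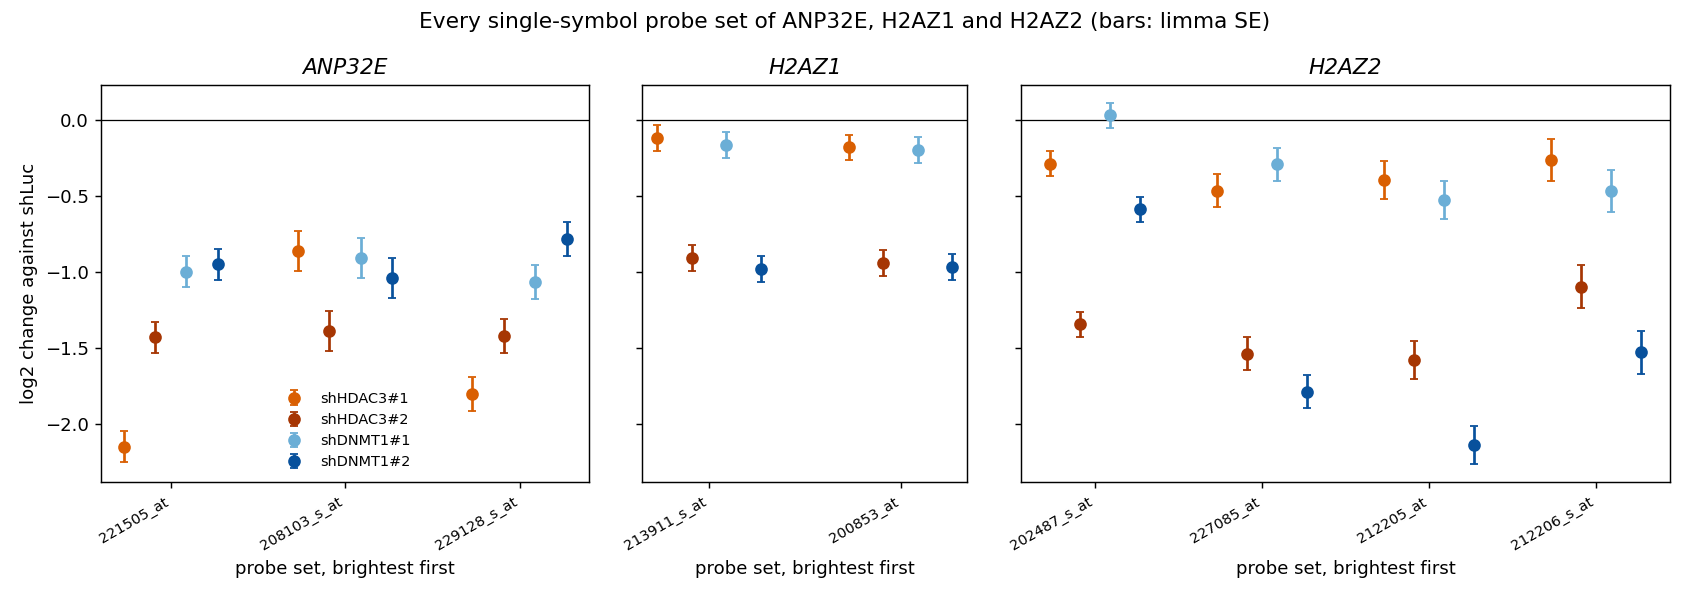
Log2 change against shLuc with each hairpin (vertical axis, points with limma's SE, 2 against 2 arrays) for every probe set that carried the symbol of ANP32E, H2AZ1 or H2AZ2 alone (horizontal axis, brightest first). All H2AZ1 and H2AZ2 probe sets are lower with shHDAC3#2 and shDNMT1#2 than with the other hairpin of the same target, and the leading H2AZ2 probe set lies above the others with shDNMT1#2, at -0.59.

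Most like H2AZ2 over the 10 arrays were BTBD1 (r = 0.97), HMGN3, a nucleosome-binding protein (r = 0.97), and CDC42, a small GTPase of the cytoskeleton (r = 0.96). H2AZ1 and H2AZ2 correlated with each other with r = 0.81 over the same 10 arrays. ANP32E correlated with H2AZ1 with r = 0.18 and with H2AZ2 with r = 0.36, and ANP32B with H2AZ1 with r = 0.71. Over all pairs of members r ran from -0.85 (ANP32A with SRCAP) to 0.85 (ANP32B with ZNHIT1).

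SRCAP and EP400 are the ATPases of the complexes that load H2A.Z. SRCAP read 8.75 and 8.95 in shLuc and 8.95 to 9.11 in the 8 knockdown arrays. It was at 0.17 ± 0.08 in HDAC3 knockdown (adjusted p = 0.15) and at 0.21 ± 0.08 in DNMT1 knockdown (adjusted p = 0.070), and was called higher in both after a further quantile normalization (0.40 and 0.44, adjusted p = 0.0024 and 0.0011). It was called higher in DNMT1 knockdown too when shLuc replicate 2 (0.31, adjusted p = 0.035) or shDNMT1#1 replicate 1 (0.25, adjusted p = 0.033) was left out. Leaving out shLuc replicate 1 lowered SRCAP to 0.07 in HDAC3 knockdown and 0.11 in DNMT1 knockdown (adjusted p = 0.81 and 0.64), and with the array SD as a covariate it was at -0.03 and 0.00. A second SRCAP probe set, 1552630_a_at, was higher in DNMT1 knockdown by 0.35 ± 0.09 (adjusted p = 0.0094), and the 2 dim ones, with means of 4.91 and 4.17, were at 0.08 and -0.11. EP400 read 6.07 and 6.20 in shLuc and 6.18 to 6.41 in the knockdown arrays. It was at 0.16 ± 0.10 in HDAC3 knockdown (adjusted p = 0.27) and 0.15 ± 0.10 in DNMT1 knockdown (adjusted p = 0.28), and its 3 other probe sets lay between -0.07 and 0.21 in these comparisons.

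VPS72, the subunit of both complexes that binds the H2A.Z-H2B dimer, differed with shHDAC3#1. It read 6.77 and 7.03 there, 7.38 and 7.30 in shLuc, 7.23 and 7.46 with shHDAC3#2 and 7.29 to 7.40 in the 4 DNMT1 arrays. Against shLuc it was lower by -0.45 ± 0.11 with shHDAC3#1 (adjusted p = 0.0064), and shHDAC3#2 lay above shHDAC3#1 by 0.45 ± 0.11 (adjusted p = 0.0087). This difference was not called without shHDAC3#1 replicate 1 (0.32, adjusted p = 0.21) or without shHDAC3#2 replicate 2 (0.33, adjusted p = 0.19). VPS72 was at 0.00 ± 0.10 in DNMT1 knockdown (adjusted p = 0.99). INO80, the ATPase of a remodeller that also acts on H2A.Z nucleosomes, read 6.68 and 6.66 with shHDAC3#1, 6.95 and 7.15 with shHDAC3#2 and 7.07 and 6.92 in shLuc. It read 6.95 and 6.58 with shDNMT1#1 and 7.08 and 6.92 with shDNMT1#2. Its change was -0.14 ± 0.11 in HDAC3 knockdown (adjusted p = 0.38) and -0.12 ± 0.11 in DNMT1 knockdown (adjusted p = 0.46). The hairpins differed by 0.38 ± 0.12 (adjusted p = 0.049), and this call was lost in 8 of the 10 fits that left out 1 array. In these groups the ACTB difference was 1.00 with shHDAC3#1 and 0.74 with shHDAC3#2. Its part in the values of ANP32E, VPS72 and INO80 was not tested.

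ZNHIT1, a small subunit of the SRCAP complex, read 8.44 and 8.52 in shLuc and 8.18 to 8.57 in the knockdown arrays, with DNMT1 arrays on both sides of the controls and no HDAC3 array above them. It was at -0.16 ± 0.09 in HDAC3 knockdown (adjusted p = 0.20) and -0.14 ± 0.09 in DNMT1 knockdown (adjusted p = 0.27). VPS72 and ZNHIT1 had 1 probe set each, and the other, dim INO80 probe set (mean 5.61) had the opposite sign to the leading one, with 0.07 for HDAC3 knockdown and 0.06 for DNMT1 knockdown (adjusted p = 0.74 and 0.77).

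**Figure D3:**
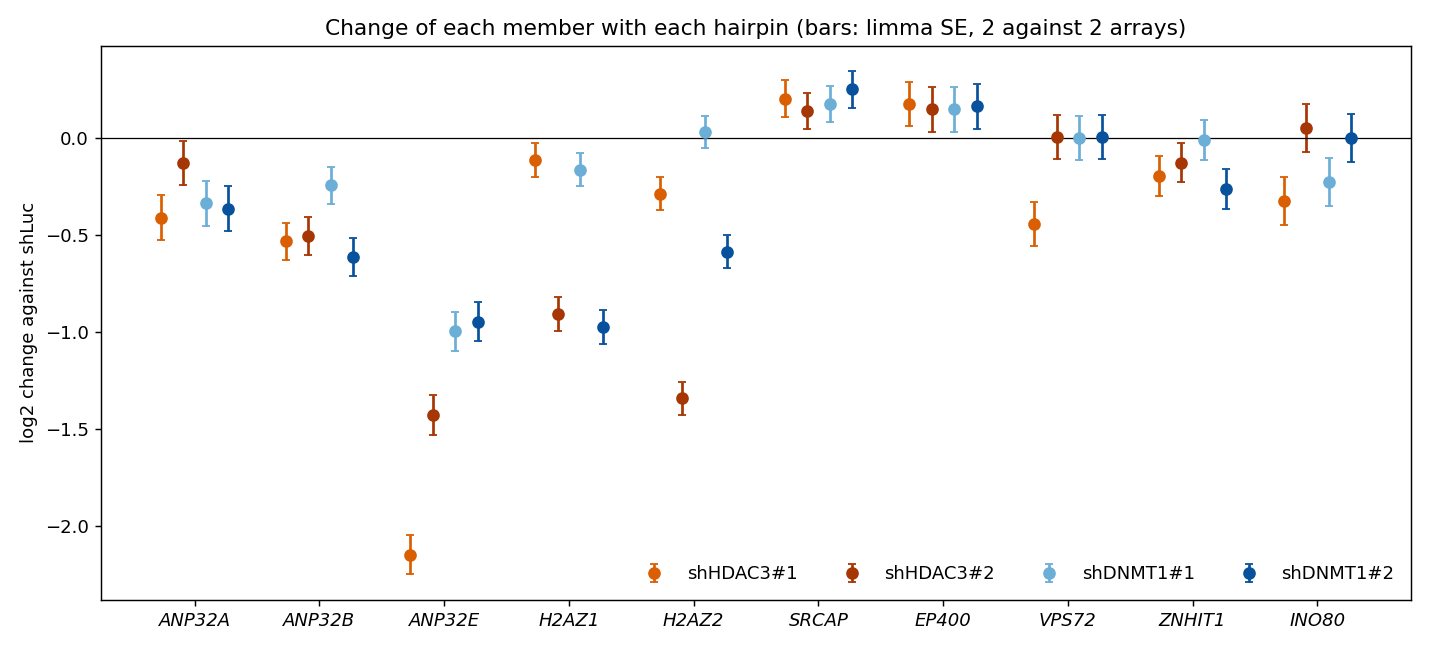
Log2 change of the leading probe set against shLuc (vertical axis) for each of the 10 genes (horizontal axis) with each of the 4 hairpins; points are limma estimates and bars their SE, 2 against 2 arrays. ANP32E is below 0 with all 4 hairpins, H2AZ1 is near -0.9 or below with shHDAC3#2 and shDNMT1#2 and above -0.2 with the others, and VPS72 departs from 0 with shHDAC3#1.

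Apart from ANP32E, whose fall was known, 3 of the 9 other genes were called lower and 0 higher in HDAC3 knockdown (ANP32B, H2AZ1 and H2AZ2). Of all genes, 19.2% were called in that comparison, 15.3% lower and 3.96% higher. In DNMT1 knockdown 4 of the 9 were called lower and 0 higher (the same 3 and ANP32A), where 20.2% of all genes were called, 13.5% lower and 6.66% higher. At an unadjusted p under 0.05 in the limma fit, 0 members were higher in HDAC3 knockdown and 1, SRCAP, in DNMT1 knockdown. The median change of the 10 genes, ANP32E included, was -0.25 in HDAC3 knockdown and -0.21 in DNMT1 knockdown. That of all genes was 0.05 and 0.07. Both comparisons used the same 2 control arrays. By the arrays alone, ANP32E lay below both controls on all 8 knockdown arrays, which is a description, as its fall was known. Of the 9 others, ANP32B, H2AZ1, H2AZ2 and ZNHIT1 lay below both controls on all 4 HDAC3 arrays, and SRCAP and EP400 above. Among all genes, 15.8% lay below and 22.1% above there. On all 4 DNMT1 arrays ANP32A, ANP32B and H2AZ1 lay below and SRCAP above, where 13.9% of all genes lay below and 20.2% above. On all 8 knockdown arrays ANP32B and H2AZ1 lay below and SRCAP above, where 9.3% of all genes lay below and 10.7% above. Some margins were near a tie. SRCAP read 8.9492 in shDNMT1#1 replicate 1 against 8.9489 in shLuc replicate 2. ZNHIT1 read 8.4367 in shHDAC3#2 replicate 2 against 8.4401 in shLuc replicate 1. With the hairpin as a random block, so that the difference between hairpins counted as error, 0 of the 9 genes were called in either knockdown, where 0.369% and 0.157% of all genes were. At an unadjusted p under 0.05 this fit held 3 of all 10 genes in HDAC3 knockdown and 2 in DNMT1 knockdown. With the array SD as a covariate, 1 of the 9 was called in HDAC3 knockdown (H2AZ2 at -0.87) and 0 in DNMT1 knockdown, where 0.576% and 0.602% of all genes were. There, 3 and 2 of all 10 genes had an unadjusted p under 0.05. ANP32E was at -1.4 and -0.57 in this fit, against -1.79 and -0.97 without the covariate.

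Between the HDAC3 hairpins 5 of the 10 genes were called, where 12.6% of all genes were called, 8.85% higher with shHDAC3#2 and 3.75% lower. Between the DNMT1 hairpins 3 were called, where 12% of all genes were called, 3.57% higher with shDNMT1#2 and 8.39% lower. The 5 were H2AZ1 and H2AZ2, lower with shHDAC3#2, and ANP32E, VPS72 and INO80, higher with it. The 3 were ANP32B, H2AZ1 and H2AZ2, all lower with shDNMT1#2. With 1 hairpin at a time against shLuc, and again apart from ANP32E, 4 of the 9 were called lower with shHDAC3#1, 3 with shHDAC3#2, 0 with shDNMT1#1 and 4 with shDNMT1#2, where 16.6%, 9.54%, 6.81% and 15.2% of all genes were called lower. By the same limma fit 0 members were called higher with any of the 4 hairpins, where 7.83%, 1.31%, 1.34% and 11.6% of all genes were, and calls in either direction took 24.4%, 10.9%, 8.15% and 26.8% of all genes. At an unadjusted p under 0.05, 3 of all 10 genes were lower with shDNMT1#1. The count of members higher at an unadjusted p under 0.05 was 1 with shHDAC3#1, 0 with shHDAC3#2, 0 with shDNMT1#1 and 1 with shDNMT1#2. Between the knockdowns, H2AZ2 alone of the 9 was called higher with DNMT1 knockdown and 0 were called lower (0 also at an unadjusted p under 0.05), where 9.59% of all genes were called, 6% higher and 3.59% lower. The disagreement of the H2AZ2 probe sets given above holds here. In each of the 9 the 4 DNMT1 arrays overlapped the 4 HDAC3 arrays, where 3.55% of all genes had DNMT1 arrays all above and 1.65% all below. The DNMT1 arrays of ANP32E all lay above its HDAC3 arrays. That is a description, since its fall in HDAC3 knockdown was known when the genes were chosen.

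Around the 10 genes, 61 others of the pathway were listed and 59 measured. In HDAC3 knockdown 21 were called lower (35.6%, against 15.3% of all genes) and 2 higher. In DNMT1 knockdown 26 were called lower (44.1%, against 13.5% of all genes) and 0 higher, with 1 higher at an unadjusted p under 0.05. Their median change was -0.15 and -0.22, and that of all genes 0.05 and 0.07. The lists were chosen with earlier results of these data known. Their counts with the hairpin as a random block or with the array SD as a covariate are not given here. With the random block 73 and 31 of all genes were called in HDAC3 and DNMT1 knockdown, and with the covariate 114 and 119. Between the DNMT1 hairpins 18 of the 59 were lower with shDNMT1#2 and 0 higher (3 at an unadjusted p under 0.05), where 8.39% of all genes were lower. Between the HDAC3 hairpins 9 were higher with shHDAC3#2 and 5 lower, where 8.85% and 3.75% of all genes were.

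Beside the list counts that follow, 15.3% of all genes were called lower in HDAC3 knockdown and 13.5% in DNMT1 knockdown. Of the other listed subunits of the SRCAP complex, 2 of 6 fell in HDAC3 knockdown and 3 of 6 in DNMT1 knockdown. In both these were the acetyl-lysine reader YEATS4 (-0.37 ± 0.12, adjusted p = 0.034, and -0.56 ± 0.12, adjusted p = 0.0018) and the actin-like ACTL6A (-0.36 and -0.71). The helicase RUVBL2 fell in DNMT1 knockdown (-0.26, against -0.25 and adjusted p = 0.053 in HDAC3 knockdown). YEATS4 and ACTL6A were not called with shHDAC3#1 (limma, adjusted p = 0.24 and 0.16) or with shDNMT1#1 (adjusted p = 0.16 and 0.14). With shDNMT1#2 they were at -0.78 and -1.13. RUVBL2 was not called with shDNMT1#1 (-0.21, adjusted p = 0.24). Of the TIP60-p400 complex, which acetylates histones beside its exchange activity, 3 of 11 fell in HDAC3 knockdown and 6 of 11 in DNMT1 knockdown. EPC1 (-0.61 and -0.54) and MEAF6 (-0.38 and -0.66) fell in both, as did the bromodomain protein BRD8 (-0.48 and -0.25, adjusted p = 0.00044 and 0.048). EPC1 was called lower with each hairpin. MEAF6 was not called with shHDAC3#2 (-0.20, limma, adjusted p = 0.33) or with shDNMT1#1 (-0.35, adjusted p = 0.057). EPC2 (-0.57) and the chromodomain protein MORF4L1 (-0.35) fell in DNMT1 knockdown and were at -0.33 (adjusted p = 0.054) and 0.04 (adjusted p = 0.76) in HDAC3 knockdown. Of the INO80 complex, 2 of 11 fell in HDAC3 knockdown and 3 of 11 in DNMT1 knockdown, with medians of -0.03 and 0.01. Its DNA-binding subunit YY1 changed most (-0.95 ± 0.11, adjusted p = 1.6e-06, and -0.76 ± 0.11, adjusted p = 2.8e-05), followed by the deubiquitinase UCHL5 (-0.45 and -0.51) and, in DNMT1 knockdown, INO80C (-0.37).

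Among partners of ANP32A, 3 of 6 fell in HDAC3 knockdown and 4 of 6 in DNMT1 knockdown. The PP2A catalytic subunit PPP2CA (-0.56 and -0.64), the RNA-binding protein ELAVL1 (-0.34 and -0.57) and the export receptor XPO1 (-0.33 and -0.51) fell in both. SET, which inhibits PP2A as ANP32A does, fell in DNMT1 knockdown by 0.30 and was at 0.03 in HDAC3 knockdown. Of the 3 measured readers of H2A.Z, BRD2 fell in both (-0.33 and -0.30) and PWWP2B rose in HDAC3 knockdown by 0.27. Of the 4 other H2A variants measured, MACROH2A1 fell by 0.30 and H2AX rose by 0.26 in HDAC3 knockdown. In DNMT1 knockdown 0 of these 4 were called by limma, and 0 had an unadjusted p under 0.05.

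Other histone chaperones fell in 9 of 18 cases in each knockdown, with medians of -0.32 and -0.31. The centromere chaperone HJURP (-0.62 and -0.69), MCM2, a helicase subunit that holds H3-H4 (-0.58 and -0.63), and NASP, which keeps soluble H3-H4 (-0.56 and -0.57), fell in both. ASF1B, which hands H3-H4 to other chaperones, fell in both as well (-0.50 and -0.57), and so did its relative ASF1A (-1.13 ± 0.10, adjusted p = 1.1e-07, and -0.38, adjusted p = 0.013). In HDAC3 knockdown ASF1A had the largest change of the list, at -1.89 with shHDAC3#1 and -0.37 with shHDAC3#2.

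**Figure D4:**
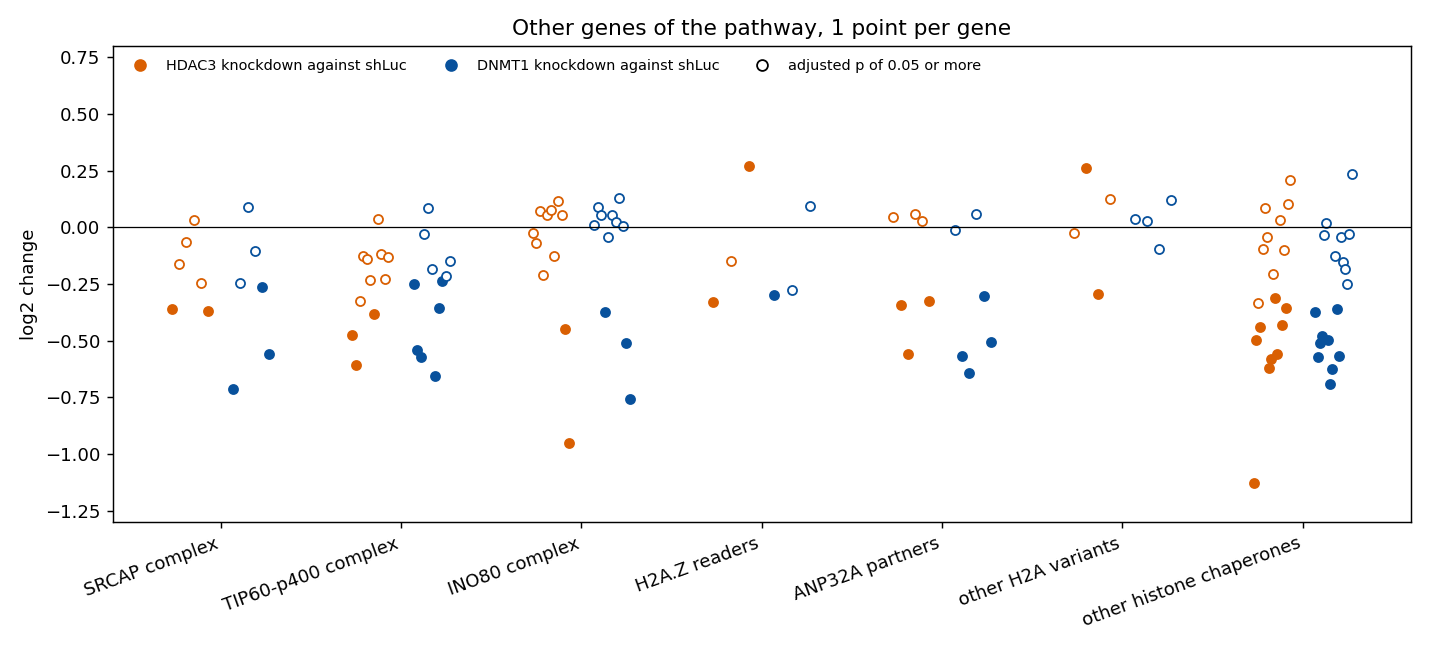
Log2 change in HDAC3 and DNMT1 knockdown against shLuc (vertical axis) of the 59 measured genes in 7 lists of other genes of the pathway (horizontal axis); each point is 1 gene by its leading probe set, filled where limma's adjusted p was under 0.05. Nearly all filled points lie below 0, and YY1 in the INO80 complex and ASF1A among the chaperones reach -0.95 and -1.13 in HDAC3 knockdown.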

How the data were processed

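On a 3′ expression array with 54675 probe sets, the authors computed and deposited log2 signals by RMA, as the submitters' processing notes name it. RMA subtracts background, equalizes the distributions of arrays and combines the probes of a set, so that changes of dim probe sets are understated. Its version was not given in the sources used here, nor is it stated whether 1 run covered all arrays. That values are log2 was read from their range, and the number of arrays limits the precision.

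Of the probe sets, 41091 had 1 gene symbol in the platform annotation and were used, and 41037 of these matched RefSeq by gene ID. The members' 3 probe sets with several symbols were left out. The test was limma's (version 3.58.1, under R 4.3.3), with 1 linear model over 5 groups, 5 residual degrees of freedom and eBayes with an intensity trend. For a knockdown, the means of both hairpin groups were averaged and set against shLuc. Tests were two-sided, adjusted by Benjamini-Hochberg over all genes, or over all probe sets for single ones, and called at an adjusted p under 0.05. The fit was checked on simulated data.

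Probe sets ending in _s_at, _x_at or _a_at were taken as able to cross-hybridize. The members, lists and tests were chosen with earlier results of these data known. Named were all members, both targets, up to 4 called genes per list and knockdown with the largest change, and, for members whose group means spanned at least 1, the 3 genes with the highest correlation. Replicate numbers did not pair the arrays: 2 of 10 pairs of groups had deviations correlated above 0.1.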

Additional observations from a re-analysis of the deposited data

Results flagged for a closer look

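Differences between the hairpins of 1 target passed the test of the difference itself (limma, adjusted over all genes) for 8 values. Between shHDAC3#2 and shHDAC3#1 these were ANP32E at 0.72 (adjusted p = 2.7e-05), H2AZ1 at -0.79 (adjusted p = 1e-06), H2AZ2 at -1.06 (adjusted p = 8e-09), VPS72 at 0.45 (adjusted p = 0.0087) and INO80 at 0.38 (adjusted p = 0.049). Between shDNMT1#2 and shDNMT1#1 they were ANP32B at -0.37 (adjusted p = 0.014), H2AZ1 at -0.81 (adjusted p = 9.3e-07) and H2AZ2 at -0.62 (adjusted p = 1.9e-05).

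HDAC3 itself did not differ by the test between its hairpins (-0.17 ± 0.18, adjusted p = 0.67), nor did DNMT1 between its own (0.29 ± 0.12, adjusted p = 0.14). A missing call does not show equal levels. DNMT1 was higher with shHDAC3#2 than with shHDAC3#1 by 0.55 ± 0.12 (limma, adjusted p = 0.0027). HDAC3 was at -0.48 ± 0.18 with shDNMT1#2 against shDNMT1#1 (adjusted p = 0.097). The part of the target levels in the differences above was not tested.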

How the results depend on the processing

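Counts here include ANP32E. With the hairpin as a random block (estimated correlation 0.351), 1 member was called in HDAC3 knockdown, 0 in DNMT1 knockdown and 0 between the knockdowns, by limma, with 3, 2 and 1 at an unadjusted p under 0.05, where 73, 31 and 6 of all genes were called. With both hairpins as 1 group the counts were 1, 1 and 0, with 3, 4 and 1 at an unadjusted p under 0.05, where 362, 326 and 29 of all genes were called. In both fits the calls left were of ANP32E, whose fall was known when the genes were chosen. They are a description and no test, and 0 of the 9 others were called in either knockdown. With the array SD as a covariate the counts with ANP32E were 2 in HDAC3 knockdown, 0 in DNMT1 knockdown (2 at an unadjusted p under 0.05) and 3 between the HDAC3 hairpins. Of all genes, 114, 119 and 2091 were called there. Between the knockdowns this fit called 3 members, with VPS72 gained (0.23, adjusted p = 0.025). ANP32A then turned to 0.33 in HDAC3 knockdown, 0.27 in DNMT1 knockdown and 0.56 between the DNMT1 hairpins (adjusted p = 0.034), where 670 genes were called. Averaging all probe sets per gene left 1 call between the knockdowns and 3 between the HDAC3 hairpins. Without cross-hybridizing probe sets, 7 members were tested and 1 was called between the knockdowns. Under both of these H2AZ2 turned to -0.04 between the knockdowns. With shDNMT1#1 alone, chosen after seeing the data, 1 member was called and H2AZ2 was at 0.03. With 1 array left out, counts ranged from 4 to 5 in HDAC3 knockdown, 3 to 6 in DNMT1 knockdown, 2 to 2 between the knockdowns, 3 to 5 between the HDAC3 hairpins and 2 to 4 between the DNMT1 hairpins. The low of 3 in DNMT1 knockdown came without shLuc replicate 1, and that of 3 between the HDAC3 hairpins without shHDAC3#1 replicate 1 or shHDAC3#2 replicate 2. With the replicate block the counts were 4, 5, 2, 4 and 3 in the same order, and the only call it changed was that of INO80 between the HDAC3 hairpins (0.38, adjusted p = 0.056). The cause of these shifts was not tested. After a further quantile normalization 1955 genes were higher and 2451 lower in HDAC3 knockdown, against 784 and 3017, and 1968 higher and 2295 lower in DNMT1 knockdown, against 1317 and 2675. Between the DNMT1 hairpins it gave 1108 higher and 1448 lower, against 706 and 1659. With arrays centred on their medians, 417 were higher and 3268 lower in HDAC3 knockdown, and 524 higher and 3062 lower in DNMT1 knockdown. Values near the background limit what can be read of dim probe sets.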
